A study of Homo sapiens with 6 samples.

Results

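The nuclear genes of oxidative phosphorylation subunits were examined in MDA-MB231 cells, an established human breast cancer line, carrying either the GHSROS-pTargeT construct or the empty pTargeT plasmid. A gene belonged to the set when its annotated symbol named a numbered NDUFA, NDUFB, NDUFC, NDUFS or NDUFV subunit, SDHA to SDHD, a UQCR subunit, a COX4 to COX8 subunit, or an ATP5F, ATP5M or ATP5P subunit, with assembly factors and pseudogenes left out and the brightest probe set kept per gene. This gave 77 of the 18377 genes read by a probe set with a single symbol. They comprised 33 subunits of complex I, 3 of complex II, 7 of complex III, 17 of complex IV and 17 of complex V. Some protein-coding genes that meet the rule, such as SDHB, UQCRFS1, NDUFC2 and ATP5F1E, had no probe set of their own in the annotation and were not analysed here.

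Oxidative phosphorylation is the route by which mitochondria turn the electrons of NADH and succinate into ATP. Complexes I and II pass electrons to coenzyme Q, complex III hands them on to cytochrome c and complex IV reduces oxygen, while complexes I, III and IV pump protons that drive the ATP synthase, complex V. All but complex II are built from subunits of both the nuclear and the mitochondrial genome, so that the genes described here are the nuclear share, and the catalytic cores of complexes III and IV and the proton channel of complex V rest on mitochondrially encoded proteins. Cancer cell lines in culture often combine active glycolysis with working respiration.

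GHSROS is a long noncoding RNA from the strand opposite the ghrelin receptor gene GHSR, and the comparison asks which RNA levels differ when the cells are made to express it. Total RNA of 3 cultures per group, which the submitters call biological replicates, was read on 6 one-colour Affymetrix Human Gene 1.0 arrays, as log2 expression values. Array medians over all 28869 probe sets lay between 6.559 and 6.648. Neither selection for the plasmid nor the number of clones behind the cultures is given in the sources used here. No probe set was named for GHSROS in the annotation, so its own level was not checked. Unless the cultures are independent of each other, the p-values describe no more than the spread of these 6 samples, and in bulk RNA fewer cells of a type and less RNA per cell cannot be told apart. In these arrays all 6 mesenchymal genes, among them VIM and CD44, lay above the gene-level medians of 7.495 to 7.567 on every array. Of 8 genes of luminal breast epithelium 4 lay below them on every array, among them ESR1 (5.04 to 5.18) and CDH1 (5.01 to 5.35), and 3 lay above, KRT8 (12.05 to 12.15), KRT18 (11.83 to 12.16) and ERBB2 (8.80 to 8.99). Below the medians on every array were also 5 of 6 fibroblast, 4 of 5 leukocyte, 4 of 5 endothelial and 4 of 5 muscle markers. The exceptions were COL1A1 (7.62 to 7.85), CD68 (12.06 to 12.66), KDR (7.20 to 9.10) and ACTA1 (8.13 to 8.35).

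Subunit genes differed little between the vectors. Of the 77, 55 had a lower and 22 a higher mean in the GHSROS arrays, with a median log2 fold change (GHSROS minus empty vector) of -0.043 and a range from -0.26 for SDHD to 0.14 for UQCRB. A negative log2 fold change was found for 49.1% of all 18377 genes and for 55.8% of the 9189 genes whose mean reached the median level. In limma, 0 of the 77 passed an adjusted p of 0.05, as did 0 of all genes (0%), and every adjusted p of a subunit gene was 1. At an unadjusted p under 0.05 there was 1 subunit gene, SDHD, beside 325 of all genes (1.77%). The 3 GHSROS arrays lay entirely below the 3 empty-vector arrays for NDUFA2, SDHD, ATP5F1C and ATP5PD and entirely above them for SDHC. That made 5 of 77, beside 1012 of all genes (5.51%), which is near the background. The lean towards lower values depended on single arrays. Without empty-vector array 3, 31 of the 77 were lower (median 0.039), beside 42.9% of all genes (median 0.022). Without empty-vector array 1, 70 of the 77 were lower (median -0.096), beside 50.8% of all genes (median -0.002).

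**Figure D1:**
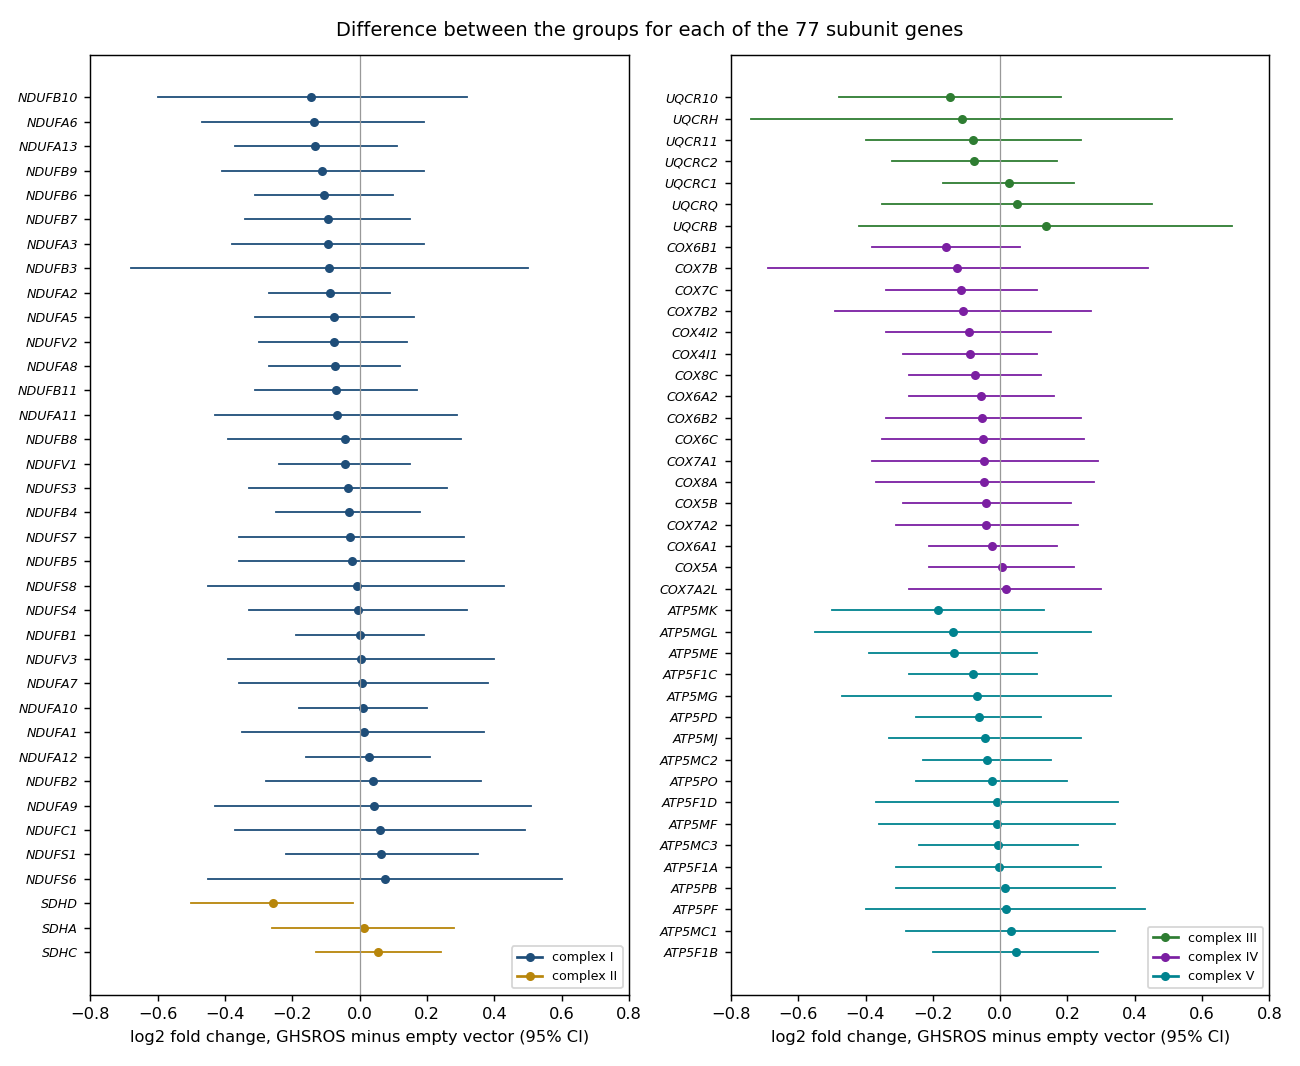
The log2 fold change (GHSROS minus empty vector) of each of the 77 subunit genes is plotted as a point with its 95% confidence interval from limma (3 arrays per group), coloured by complex. Of all 77 intervals, that of SDHD alone does not include 0.

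The intervals give the size of difference that the arrays allow. For 69 of the 77 genes (89.6%) the 95% confidence interval of limma lay within 0.5 on the log2 scale on either side of 0, a 1.41-fold difference, as it did for 78.3% of all genes. The 8 with wider intervals were NDUFA9, NDUFB10, NDUFB3, NDUFS6, UQCRB, UQCRH, COX7B and ATP5MGL. All 77 intervals lay within a 2-fold difference, as did 97.3% of those of all genes.

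The arrays of one group differed among themselves more than the groups did, and many subunits of different complexes moved across the arrays in the same order. Empty-vector array 3 gave the highest of the 6 values for 52 of the 77 genes (67.5%), beside 25.6% of all genes and 28.5% of those whose mean reached the median level. The lowest value came from empty-vector array 1 or GHSROS array 3 for 47 genes (61%), beside 37.2% and 44.8%. These arrays were together the lowest pair for 34 genes (44.2%), beside 20.3% and 32.4%. Set against each gene's own mean, the median subunit stood at -0.082, -0.001 and 0.162 on empty-vector arrays 1, 2 and 3, and at 0.049, 0.003 and -0.102 on GHSROS arrays 1, 2 and 3. Over all genes these deviations stayed between -0.022 and 0.035. The high share of empty-vector array 3 was not particular to the subunits. In the related lists described below it was highest for 51% of 49 assembly factors and 52.9% of 17 regulators. The shares were 50% of 18 electron carrier and coenzyme Q genes, 47.1% of 17 TCA cycle and pyruvate dehydrogenase genes and 71.4% of 7 related genes. The range over the arrays had a median of 0.38 for the subunit genes and 0.37 for all genes.

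**Figure D2:**
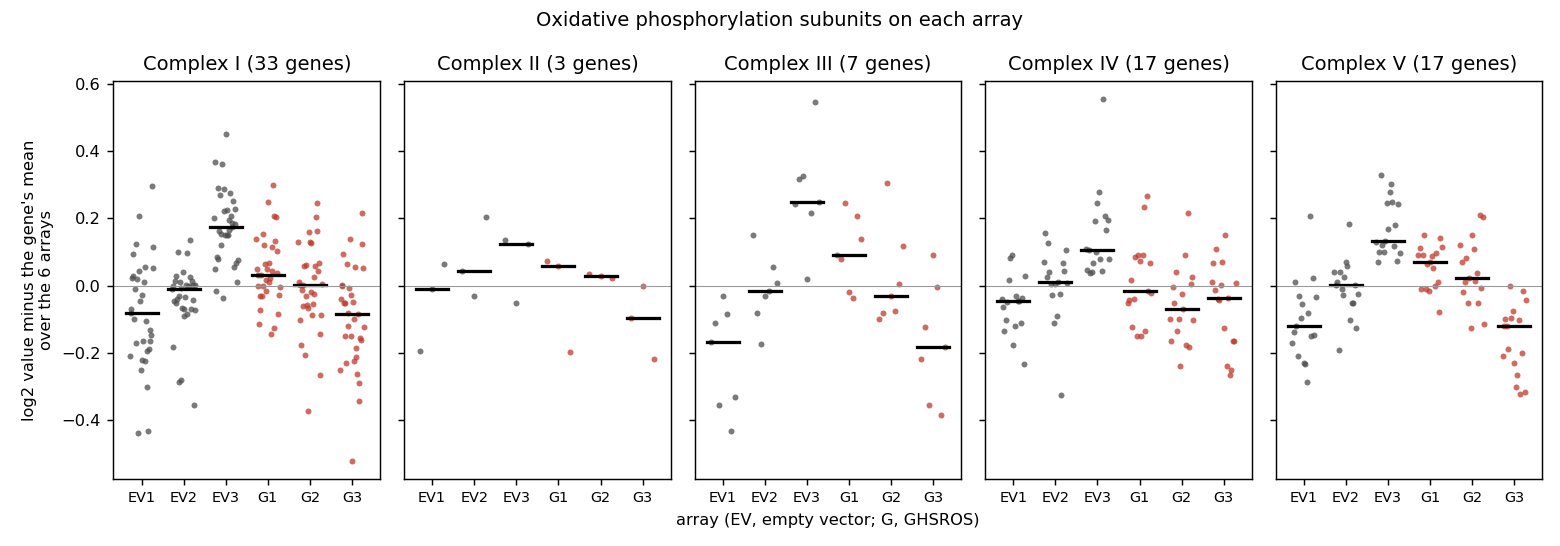
Each point is a subunit gene's log2 value on an array minus its own mean over the 6 arrays, by complex, with empty-vector arrays (EV1 to EV3) in grey and GHSROS arrays (G1 to G3) in red and the median as a bar. Complex III runs from -0.168 on EV1 to 0.245 on EV3 and back to -0.180 on G3, and complex IV spans less, from -0.074 on G2 to 0.106 on EV3.

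Markers of growth moved with this order, and markers of stress moved opposite to it. The mean of 8 mitosis genes, among them CCNB1 and PLK1, was 10.30, 11.08 and 11.34 on empty-vector arrays 1, 2 and 3 and 11.33, 11.25 and 10.26 on GHSROS arrays 1, 2 and 3. The mean of 7 genes of the ATF4 amino acid stress response, among them ASNS and CHAC1, was 10.10, 9.29 and 8.74 and then 8.72, 8.88 and 10.12. Their part in the subunit values was not tested. The mean of 5 endothelial markers was also highest on empty-vector array 1 (6.40) and GHSROS array 3 (6.57), beside 5.92 to 6.11 on the other arrays. Of these markers only KDR stood above all other arrays on both, at 8.81 and 9.10 beside 7.20 to 7.77. PECAM1 read 6.30 and 6.50 there but 6.33 on empty-vector array 2, and VWF 5.35 and 5.39 but 5.39 on empty-vector array 3. CDH5 read 6.94 and 7.32 but 7.18 on empty-vector array 2, and TEK 4.60 and 4.52 but 4.78 on empty-vector array 3. The part of these markers in the subunit values was likewise not tested. Not every subunit followed this order, and NDUFA13, NDUFS8 and NDUFV1 had empty-vector array 1 and GHSROS array 3 as their highest pair, a pattern of 18.9% of all genes.

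**Figure D3:**
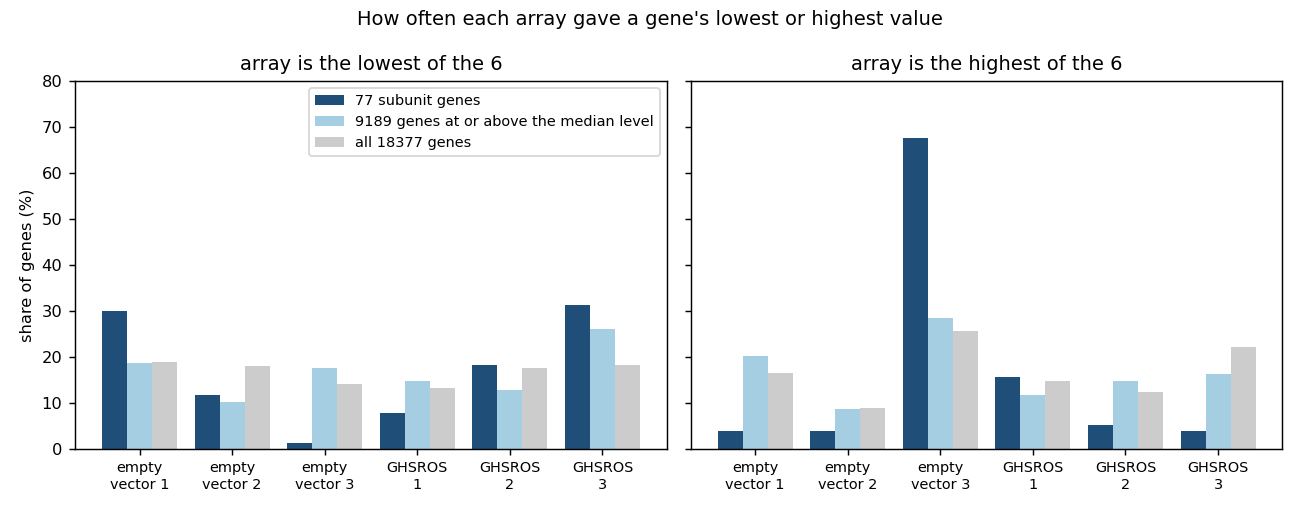
Bars give the share of genes (%) for which each array held the lowest (left) or highest (right) of the 6 values, for the 77 subunit genes, the 9189 genes reaching the median level (mean over the arrays) and all 18377 genes. Empty-vector array 3 is the highest for 67.5% of the subunit genes and the lowest for 1.3%.

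Promoter sequences of the subunit genes were described as well, and whether their motifs go with the order of arrays was not tested. Nuclear respiratory genes are known for binding sites of NRF1, of ETS-family factors such as GABPA, and of YY1. RefSeq promoters of assembly GRCh38.p14, 250 bases before to 50 after the gene start, were found for 65 of the 77 genes and searched on both strands. The motif GCGCANGCG (NRF1) was in 21 of them (32.3%), CCGGAAGT (ETS) in 10 (15.4%) and AAGATGGC (YY1) in 10 (15.4%). Among all 27305 promoters of the table the shares were 8.05%, 4.44% and 3.03%, and among the 14208 measured genes with a promoter 11.4%, 6.38% and 4.07%. At least 1 of these motifs was in 33 subunit promoters (50.8%), beside 14.1% and 19.7%. By complex, the NRF1 motif was in 8 of 31 promoters of complex I, 2 of 2 of complex II, 3 of 6 of complex III, 2 of 14 of complex IV and 6 of 12 of complex V. Such a match describes the sequence and shows no binding.

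The windows below run from 125 bases before to 25 after the start, on the plus strand, with motif matches in capitals. They are shown for the gene with the smallest p (SDHD, chr11:112086748-112086897), the gene with the widest range over the arrays (UQCRH, chr1:46303573-46303722) and the complex I genes with the widest ranges (NDUFB3, chr2:201071876-201072025, and NDUFA9, chr12:4648989-4649138). The letters of NRF1 overlap their own reverse complement in SDHD, so that its 10 capitals hold 2 matches, followed by an ETS match in reverse.
SDHD: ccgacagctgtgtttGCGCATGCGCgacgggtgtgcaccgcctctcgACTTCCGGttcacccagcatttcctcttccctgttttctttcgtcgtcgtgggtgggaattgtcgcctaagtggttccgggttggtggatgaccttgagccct
UQCRH: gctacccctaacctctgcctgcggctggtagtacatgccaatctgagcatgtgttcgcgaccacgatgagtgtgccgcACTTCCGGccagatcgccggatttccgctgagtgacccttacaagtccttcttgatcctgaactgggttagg
NDUFA9: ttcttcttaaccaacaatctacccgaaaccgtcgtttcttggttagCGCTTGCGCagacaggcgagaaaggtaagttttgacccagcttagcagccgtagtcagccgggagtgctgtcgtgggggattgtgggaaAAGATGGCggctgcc
NDUFB3: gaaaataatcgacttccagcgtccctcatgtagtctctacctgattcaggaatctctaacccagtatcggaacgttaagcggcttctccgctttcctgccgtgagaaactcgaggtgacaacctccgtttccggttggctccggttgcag
UQCRH carried an ETS match and NDUFA9 an NRF1 and a YY1 match, while NDUFB3 held none of the 3 motifs in these 150 bases.

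Complex I, the NADH dehydrogenase, had 22 of 33 subunit genes lower, with a median log2 fold change of -0.035. Its core subunits, which carry the flavin and the iron-sulfur clusters, were lower for 5 of 6 measured genes (median -0.032), with 0 at an unadjusted p under 0.05. NDUFV2, a flavoprotein subunit with an iron-sulfur cluster, read 11.50, 11.31 and 11.46 on empty-vector arrays 1, 2 and 3 and 11.38, 11.39 and 11.26 on the GHSROS arrays in the same order, in which all values are given from here on. GHSROS array 3 was the lowest and the groups overlapped (log2 fold change -0.08, SE 0.09). NDUFS1, the largest core subunit, read 10.86, 11.04 and 11.08 and then 11.23, 11.07 and 10.87, a difference of 0.06 (SE 0.12) with the lowest values on empty-vector array 1 and GHSROS array 3. NDUFS8, an iron-sulfur subunit near the quinone site, ran the other way at 10.94, 10.29 and 10.71 and then 10.56, 10.50 and 10.86. Its range of 0.65 was the widest of the core genes, and its log2 fold change was -0.01 (SE 0.18).

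The accessory subunits surround the core of complex I and stabilise it. Of 27, 17 were lower (median -0.043), again with 0 at an unadjusted p under 0.05. NDUFA13, also known as GRIM-19, read 8.85, 8.77 and 8.84 with the empty vector and 8.64, 8.58 and 8.85 with GHSROS. GHSROS arrays 1 and 2 lay below every empty-vector array, and array 3 did not (log2 fold change -0.13, SE 0.10, unadjusted p = 0.229). NDUFB6, a membrane-arm subunit, read 9.84, 9.83 and 9.98 and then 9.85, 9.74 and 9.73 (log2 fold change -0.11, SE 0.09, unadjusted p = 0.265), with overlap through GHSROS array 1. NDUFA2, an accessory subunit of the peripheral arm that was picked here after its values were seen, held its groups apart at 10.79, 10.79 and 10.84 against 10.69, 10.75 and 10.71. That difference was small, at -0.09 (SE 0.08, unadjusted p = 0.288).

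The widest spread in complex I belonged to NDUFB3, a small membrane-arm subunit, at 8.03, 8.16 and 8.70 and then 8.50, 8.38 and 7.73. Its range of 0.97 had empty-vector array 3 at the top and GHSROS array 3 at the bottom, and its log2 fold change was -0.09 (SE 0.25). NDUFS6, needed for a late step of complex I assembly, read 9.53, 10.10 and 10.15 and then 10.17, 10.21 and 9.62, one of the larger positive differences at 0.08 (SE 0.22). Empty-vector array 1 and GHSROS array 3 stood below the other 4. NDUFA12, by contrast, ran over 0.08 in all, from 12.13 to 12.21, the narrowest range of the 77.

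Complex II, succinate dehydrogenase, links the TCA cycle to the respiratory chain, and 3 of its genes were measured. SDHD, a membrane anchor that helps to bind coenzyme Q, read 11.90, 12.04 and 11.96 with the empty vector and 11.64, 11.86 and 11.62 with GHSROS on probe set 7899016. Every GHSROS array lay below every empty-vector array. Its means were 11.97 ± 0.07 (SD, n = 3) and 11.71 ± 0.13 (SD, n = 3), a log2 fold change of -0.26 (SE 0.10, 95% confidence interval -0.50 to -0.02). Its unadjusted p in limma was 0.0361 and its adjusted p 1. SDHC, the other anchor, read 12.06, 12.04 and 12.02 and then 12.13, 12.10 and 12.07. Its groups were apart in the opposite direction by a difference of 0.05 (SE 0.08, unadjusted p = 0.497). SDHA, the catalytic flavoprotein, read 11.72, 11.96 and 12.05 and then 11.99, 11.95 and 11.82, with overlapping groups and a log2 fold change of 0.01 (SE 0.11).

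Both anchors were read by a second probe set, and the groups were not apart there. The brightest probe set of SDHD, whose gene lies on chromosome 11, had 0 of its 10 neighbours in probe set number on that chromosome, and most of them on chromosome 1. The other, 7943853, whose 10 neighbours all lie on chromosome 11, read 9.45, 9.63 and 9.85 and then 9.33, 9.54 and 9.37. Its groups overlapped through GHSROS array 2, with a log2 fold change of -0.23 (SE 0.13) and an unadjusted p of 0.109. Probe sets with no neighbour on the chromosome of their gene made up 187 of 19279 named probe sets (0.97%). They also included the brightest ones of SDHC, NDUFV2 and ATP5MK and the dimmer one of COX6A1. On the SDHC probe set with its neighbours on the gene's own chromosome 1, the arrays read 9.73, 9.65 and 9.49 and then 9.75, 9.66 and 9.66. Here too the groups overlapped (log2 fold change 0.07, SE 0.10). What else the brighter probe sets may read, such as a processed pseudogene, was not tested.

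**Figure D4:**
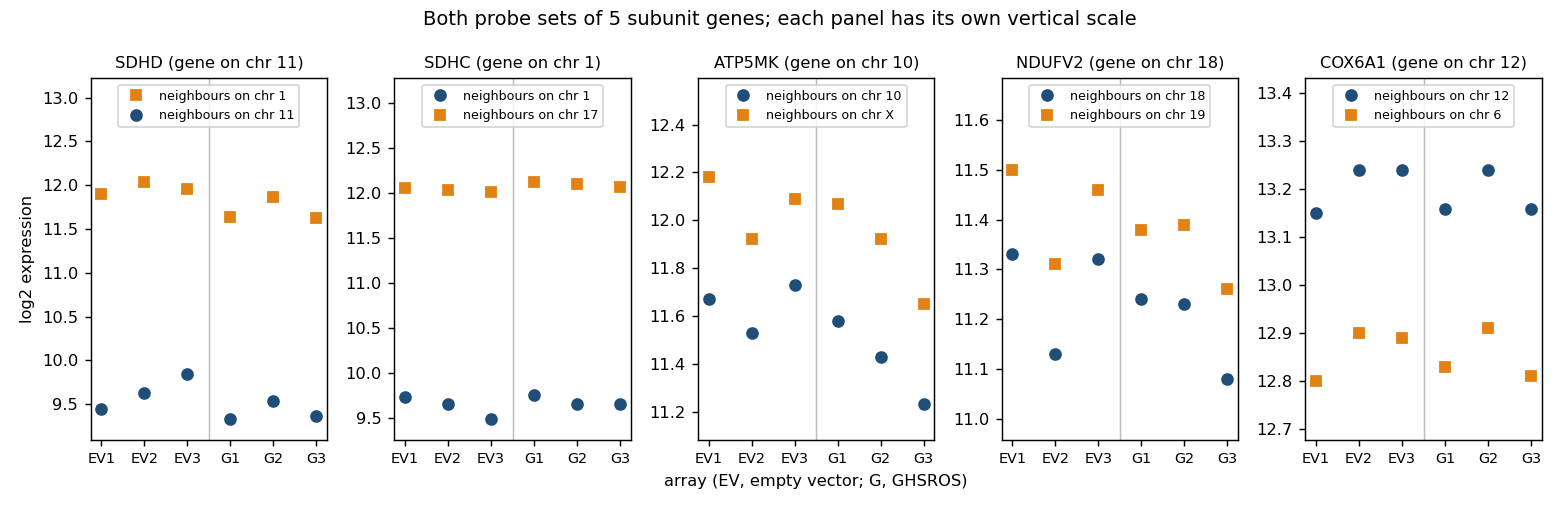
Log2 expression on the 6 arrays (EV1 to EV3, empty vector, G1 to G3, GHSROS) for both probe sets of 5 subunit genes, with circles for the probe set whose neighbours in number lie on the gene's own chromosome and squares for the other. For SDHD the squares of the groups are apart, and the circles overlap.

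Complex III, the cytochrome bc1 complex, had 4 of 7 measured genes lower, a median of -0.078 and 0 genes at an unadjusted p under 0.05. It held the widest swings over the arrays. UQCRH, the hinge protein that helps cytochrome c to dock, read 7.16, 7.65 and 8.14 and then 7.80, 7.60 and 7.21, the widest range of the 77 at 0.98. The groups overlapped fully, and the log2 fold change was -0.11 (SE 0.26). UQCR10, a small subunit near cytochrome c1, read 11.28, 11.60 and 11.69 and then 11.54, 11.35 and 11.23. It differed by -0.15 (SE 0.14, unadjusted p = 0.321), with empty-vector array 1 as low as the GHSROS arrays. UQCRC2, a core protein on the matrix side, read 11.76, 11.83 and 12.06 and then 11.81, 11.77 and 11.84 (log2 fold change -0.08, SE 0.10). Empty-vector array 3 alone stood above the rest. The largest positive difference of the 77 was that of UQCRB, a subunit that takes part in ubiquinone binding, at 5.90, 6.08 and 6.58 and then 6.50, 6.56 and 5.90. Its 0.14 had an SE of 0.24, and its values lay below the gene-level medians on every array. Over the 15 alternatives that kept UQCRB its log2 fold change ran from -0.00 to 0.54, and its sign turned in 1 of them.

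Complex IV, cytochrome c oxidase, had 15 of 17 genes lower (median -0.054), the largest such share among the complexes, and 0 at an unadjusted p under 0.05. COX6B1, which faces the intermembrane space and joins the monomers of the enzyme, read 12.18, 12.07 and 12.29 and then 11.95, 12.00 and 12.10. The highest GHSROS array passed only the lowest empty-vector array, and the log2 fold change was -0.16 (SE 0.09, unadjusted p = 0.131). COX7C read 10.70, 10.78 and 10.90 and then 10.72, 10.74 and 10.57 (log2 fold change -0.12, SE 0.10, unadjusted p = 0.260). GHSROS array 3 was its lowest and empty-vector array 3 its highest. COX7B had the widest range of the complex, 0.88, at 8.55, 8.27 and 9.15 and then 8.46, 8.81 and 8.33, and differed by -0.13 (SE 0.24).

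Several subunits of complex IV come as isoforms of different tissues. Among the widely expressed forms, COX4I1 read 9.13 to 9.34 on the 6 arrays (-0.09, SE 0.09), COX6A1 13.15 to 13.24 (-0.02, SE 0.08) and COX8A 12.20 to 12.63 (-0.05, SE 0.14), where the values in brackets are log2 fold changes. COX7A2 ran from 9.89 to 10.22 (-0.04, SE 0.11), and COX7A2L, known for its part in respiratory supercomplexes, from 10.58 to 10.99 (0.02, SE 0.12). Of the tissue forms, COX4I2 of lung, COX7A1 of heart and muscle, and COX6B2 and COX8C of testis lay below the gene-level medians on every array, at 5.87 to 6.19, 5.68 to 6.11, 4.78 to 5.12 and 4.44 to 4.62. COX6A2 of heart and muscle lay just above the medians at 7.58 to 7.80. Of the 5 muscle markers 4 lay below the medians on every array, among them MB (5.26 to 5.38) and MYH7 (5.74 to 5.89). ACTA1 (8.13 to 8.35) lay above the medians. COX7B2, known from testis, stood above the medians as well. It read 9.00, 9.18 and 9.32 and then 9.38, 8.93 and 8.86, and differed by -0.11 (SE 0.16). A gene that lies outside the rule since its renaming, COXFA4 (formerly NDUFA4), read 8.42, 8.68 and 8.53 and then 8.50, 8.53 and 8.16, with a log2 fold change of -0.15 (SE 0.13).

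Complex V, the ATP synthase, had 13 of 17 genes lower (median -0.025), with 0 at an unadjusted p under 0.05. In its catalytic F1 head, 3 of 4 were lower. ATP5F1C, the gamma subunit that turns inside the head, read 12.37, 12.37 and 12.46 and then 12.35, 12.34 and 12.26. The groups were apart by a narrow margin, and the log2 fold change was -0.08 (SE 0.08, unadjusted p = 0.343). ATP5F1B, the catalytic beta subunit, read 12.90, 13.04 and 13.11 and then 13.15, 13.11 and 12.92 (0.05, SE 0.10). ATP5F1D, the delta subunit, had the widest range of the head, 0.52, at 10.74, 10.67 and 11.19 and then 10.95, 10.87 and 10.74, and differed by -0.01 (SE 0.15). The groups overlapped for both genes.

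The c ring, which turns as protons pass, is encoded by 3 genes whose mature proteins are identical. ATP5MC1 read 13.32, 13.57 and 13.65 and then 13.68, 13.61 and 13.34, low on empty-vector array 1 and GHSROS array 3, with a log2 fold change of 0.03 (SE 0.13). ATP5MC2 stayed between 10.24 and 10.39 (-0.04, SE 0.08), and ATP5MC3 between 6.60 and 6.83 (-0.005, SE 0.10), below the gene-level medians. None of the 3 had groups apart.

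The small membrane subunits, which shape the dimers of the synthase, were lower for all 6 measured genes, with a median of -0.103. Over the alternatives the sign turned in 7 of 16 for ATP5MF (log2 fold change -0.008), 4 for ATP5MG and 3 for ATP5MJ. It turned in 1 of 15 for ATP5MGL and in 0 for ATP5ME and ATP5MK. The array deviations of these subunits were also among the widest, at -0.157 and 0.248 on empty-vector arrays 1 and 3 and -0.249 on GHSROS array 3. ATP5MK, also called DAPIT, read 12.18, 11.92 and 12.09 and then 12.07, 11.92 and 11.65. It differed by -0.18 (SE 0.13, unadjusted p = 0.207), with GHSROS array 3 well below the other 5, and by -0.23 (SE 0.12, unadjusted p = 0.0845) on the probe set whose neighbours lie on its own chromosome 10. ATP5ME, subunit e, read 9.59, 9.67 and 9.89 and then 9.63, 9.52 and 9.57 (log2 fold change -0.14, SE 0.10, unadjusted p = 0.228). ATP5MGL, a paralog of subunit g, read 5.29, 5.76 and 5.88 and then 5.63, 5.59 and 5.31 (-0.14, SE 0.17). Its range of 0.59 was the widest of complex V, and its values lay below the gene-level medians on every array.

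The peripheral stalk holds the head still against the turning ring, and 2 of its 4 genes were lower. ATP5PD, subunit d, read 11.26, 11.24 and 11.31 and then 11.16, 11.23 and 11.22. The groups were apart by a narrow margin, and the log2 fold change was -0.06 (SE 0.08, unadjusted p = 0.440). ATP5PO, the oligomycin sensitivity protein at the top of the stalk, read 10.75, 10.76 and 10.88 and then 10.90, 10.67 and 10.74 (-0.03, SE 0.10). ATP5PF, coupling factor 6, swung more widely, at 9.17, 9.19 and 9.56 and then 9.46, 9.52 and 9.00, with a log2 fold change of 0.02 (SE 0.17).

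Genes that serve the complexes without being subunits were described by lists. Of 49 measured assembly factors, 30 were lower (median -0.022). The smallest unadjusted p-values of limma among them, 0.125 and 0.203, belonged to UQCC3, a complex III factor, at -0.31 (SE 0.18) and TMEM70, a complex V factor, at -0.14 (SE 0.10). Among 18 genes of electron carriers and coenzyme Q synthesis 9 were lower (median 0.005), with COQ10B at 0.14 (SE 0.09) and ETFDH, which feeds electrons from fat oxidation, at 0.09 (SE 0.09). In the TCA cycle and pyruvate dehydrogenase 9 of 17 were lower (median -0.003). There OGDH, of the oxoglutarate dehydrogenase complex, had groups apart at -0.16 (SE 0.10), as 1 of the 17, beside 5.51% of all genes. Pyruvate carboxylase, PC, differed by -0.43 (SE 0.35). Groups were also apart for 1 of the 49 assembly factors, ECSIT. Of 7 related genes outside the rule 3 were lower (median 0.015), with COXFA4L2, a paralog of COXFA4, at 0.13 (SE 0.12) and ATP5IF1, the inhibitor of the ATP synthase, at 0.11 (SE 0.17). In each list 0 genes passed limma's adjusted p of 0.05 and 0 had an unadjusted p under 0.05. The 13 mitochondrially encoded subunits had no probe set of their own in the annotation and were not analysed here.

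Regulators of mitochondrial gene expression were lower for 10 of 17 (median -0.006). MYC, a transcription factor that drives growth and mitochondrial biogenesis, had the smallest unadjusted p of them in limma, 0.153. Its groups were apart at -0.15 (SE 0.09), which held for 1 of the 17, beside 5.51% of all genes. ESRRA, a nuclear receptor of respiratory genes, stood at 0.14 (SE 0.13). TFAM, which packages and transcribes mitochondrial DNA, read 10.28, 10.48 and 10.86 and then 10.73, 10.53 and 10.32, the order of arrays seen for many subunits. CYCS, the electron carrier cytochrome c, read 9.33, 9.70 and 10.15 and then 10.07, 10.00 and 9.25, with the same low and high arrays. PPARGC1A, the coactivator PGC-1alpha, ran opposite to them at 8.74, 7.77 and 7.39 and then 7.52, 7.72 and 8.55. Its highest values belonged to the arrays with the lowest values of CYCS and TFAM. Between the groups these 3 genes differed by -0.02 (SE 0.17), 0.05 (SE 0.28) and -0.04 (SE 0.39).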

How the data were processed

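RNA of 6 MDA-MB231 cultures was measured on one-colour arrays, 3 per group, with groups and replicate numbers read from their titles. What was deposited is a log2 expression value for each probe set and array. Per the submitters' processing notes, the authors used RMA, with version and steps not given in the sources used here. Usually RMA normalizes the arrays to each other, which removes a shift common to most genes. Of 28869 probe sets, 19310 had 1 symbol in the platform annotation, 1752 had several and 7807 were unnamed, and 0 columns were left out. The brightest probe set per gene left 18377 genes, and gene names and chromosomes came from a RefSeq table of GRCh38.p14. Arrays have no read depth, and their number limits the precision.

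The groups were compared with limma 3.58.1 under R 4.3.3 (a single term for the group, two-sided, moderated by eBayes) over all 18377 genes, with Benjamini-Hochberg adjustment and a threshold of 0.05. Members, lists and named genes were chosen with earlier results of these data known. Named were, per complex or part of it, the 2 genes with the smallest p and the one with the widest range, any with an unadjusted p under 0.05, the 3 largest differences each way, isoform families, 2 genes per list, and CYCS, PPARGC1A and TFAM. Alternatives were other scalings, a level filter, the mean of probe sets, an intensity trend, array weights, the replicate number as a block, and arrays left out. Tested on simulated data for this comparison (18377 genes, 200 shifted), limma recovered 79% at 2-fold, 96% at 4-fold and 98.5% at 8-fold. It also called 11, 14 and 4 other genes. The simulated noise was independent between genes and arrays and lacked the shared order of arrays seen here, so these rates may not hold for the real arrays. Promoter motifs were exact letter matches on both strands.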

Additional observations from a re-analysis of the deposited data

How the results depend on the processing

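No subunit gene and no other gene passed an adjusted p of 0.05 in limma under any of the 16 alternatives, where the lowest adjusted p of a subunit gene was 0.532. SDHD stayed lower in all of them, at -0.34 to -0.22, but its unadjusted p was above 0.05 with median centring, the mean of probe sets, the probe set on its own chromosome, empty-vector array 2 or 3 or GHSROS array 1 or 3 omitted, and either pair of arrays omitted. The count of subunit genes lower in GHSROS, 55 of 77, was 35 with array weights (45.6% of all genes) and 31 to 70 with single arrays omitted. With both arrays numbered 3 omitted it was 27 (median log2 fold change 0.061), where 45.3% of all genes were lower. There 4 subunit genes, NDUFB3, NDUFV3, UQCRB and ATP5PF, had an unadjusted p of limma under 0.05, beside 1710 of all 18377 genes. The count of lower subunit genes was 49 with each array centred on its median, where the share of all genes that were lower was 44.5% against 49.1%. It was also 49 after quantile normalization. With empty-vector array 1 and GHSROS array 3 both omitted it was 55. The cause of these shifts was not tested. With the replicate block, 55 were lower, the median was -0.043 and 0 genes passed. Deviations of arrays with the same number from their group means correlated across genes at -0.714, 0.504 and -0.669. The highest correlations were 0.831 for empty-vector array 1 with GHSROS array 3 and 0.738 for empty-vector array 3 with GHSROS array 1. With 3 arrays per group and this shared order of arrays, such correlations cannot show whether cultures of the same number were handled together. Using the probe set whose neighbours lie on the gene's own chromosome, chosen after seeing the data, left 55 lower and 0 subunit genes at an unadjusted p under 0.05. The 3 arrays per group limit what could be detected. The intervals given above are not adjusted for the number of genes, and SDHD, whose interval left out 0, did not pass the adjusted threshold. Differences of the sizes those intervals allow may therefore have been missed.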
